A study of Rattus norvegicus with 6 samples.

Results

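The miRNAs encoded inside the HOX gene clusters were examined in rat primary sertoli cells, the somatic cells that support germ cells in the seminiferous tubule. There are 6 such miRNA genes in the list used here, rno-miR-10a, rno-miR-10b, rno-miR-196a, rno-miR-196b, rno-miR-196c and rno-miR-615 (written below without the species prefix), and every mature row that carried one of these names, with or without the ending 5p or 3p, was taken. This gave 11 of the 734 mature miRNA rows in the count table, of which 9 had enough reads to be tested among 549 tested miRNAs. The cells came from testes of Sprague-Dawley rats aged 5 to 10 days and were used at passage 2 in medium with fetal bovine serum. The control group had 3 samples without 4-nonylphenol (4-NP, an alkylphenol with estrogen-like action), and the other group had 3 samples exposed to 0.5 mM 4-NP, all collected at 24 h. The labels do not say whether the 3 samples of a group came from separate animals or cultures, so the p-values below measure only the spread between these samples.

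HOX genes encode transcription factors that give cells their position along the body axis, and they lie in the clusters HoxA to HoxD, with the genes of lower number at one end and those of higher number at the other. Of the miRNA genes inside these clusters, miR-10 is shared by distant animals, and several of them repress transcripts of the HOX genes themselves. miR-196 is known for directing cleavage of the Hoxb8 transcript. In the GRCr8 gene table, Mir10a lay between Hoxb5 and Hoxb4, and Mir10b lay within the span of Hoxd4. Mir196a lay between Hoxc10 and Hoxc9, Mir196b between Hoxa9 and Hoxa10, and Mir196c between Hoxb13 and Hoxb9. Mir615 lay within the spans of both Hoxc5 and Hoxc6. No other miRNA gene of that table overlapped any of the 6. The assembly behind the counts is not given in the sources used here, so positions are given only as neighbours.

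The mature sequences decide which miRNAs can share targets and which can share reads. RefSeq sequences of the GRCr8 assembly were found for 10 of the 11 rows, all but miR-196a-3p. The most abundant counted product of each gene is shown 5′ to 3′ with the seed, bases 2 to 8, in capitals. For miR-615 it is the only product counted, so its arms could not be ranked. Also shown is miR-100-5p, a relative of miR-10 from outside the HOX clusters.
miR-10a-5p: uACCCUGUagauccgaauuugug
miR-10b-5p: cCCUGUAGaaccgaauuugugu
miR-100-5p: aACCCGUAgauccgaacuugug
miR-196a-5p: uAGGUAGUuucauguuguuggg
miR-196b-5p: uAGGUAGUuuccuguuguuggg
miR-196c-5p: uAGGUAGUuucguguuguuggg
miR-615: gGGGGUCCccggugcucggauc

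The 3 miR-196 5p sequences had the same seed and the same length, and each differed from the others at 1 base. Numbered from the 5′ end of miR-196a-5p, these differences were A12C in miR-196b-5p and A12G in miR-196c-5p, both outside the seed. The letters of this seed also occurred, not as bases 2 to 8, in 8 other counted miRNAs, which were 7 members of the let-7 family and miR-98-5p. miR-10a-5p and miR-10b-5p were identical at 20 of 21 aligned bases and differed by U12A, numbered from the 5′ end of miR-10a-5p. As RefSeq lists them, however, miR-10b-5p begins at base 3 of miR-10a-5p, so their listed seeds are not the same letters. The sequence of miR-615 came from the 5′ arm of its hairpin. None of the other counted miRNAs with a sequence had the listed seed of miR-10a-5p, miR-10b-5p or miR-615.

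The depth was similar in the 6 libraries, with 20023200 to 23426742 reads on mature miRNAs, and miR-21-5p alone took 62.0 to 63.9% of them. Levels are given as CPM (counts per 1000000 mature miRNA reads of the same sample), and a count of 0 allows up to 3 reads, or 0.128 to 0.150 CPM depending on the sample. These limits cover counting error only. Among marker miRNAs of the labelled cell type, miR-202-5p of the gonads had a mean of 886 CPM, and the 9 testis and sertoli markers together had 1350 to 1616 CPM in the controls and 767 to 845 CPM after 4-NP. Neither miR-202-5p (log2 fold change -0.48, edgeR adjusted p = 0.0858) nor miR-202-3p (0.75, edgeR adjusted p = 0.725) passed the test. The markers of this list that fell were miR-741-3p, miR-871-3p, miR-880-3p and miR-463-5p. The 4 markers of myoid or smooth muscle cells, led by miR-143-3p, together had 120600 to 136300 CPM in the controls and 88390 to 96700 CPM after 4-NP. In such bulk samples, fewer cells of a type and less RNA per cell cannot be told apart. Of the other lists, the summed level of endothelial markers went from 6325 to 7615 CPM in the controls to 3234 to 3805 CPM after 4-NP, and epithelial markers from 10.6 to 12.9 CPM to 6.19 to 6.91 CPM. Erythroid markers were at 11.01 to 40.7 CPM and 59.3 to 631 CPM, germ cell markers at 149.7 to 167 CPM and 162 to 197 CPM, myeloid markers at 8.05 to 10.5 CPM and 8.36 to 14.1 CPM, and striated muscle markers at 14.4 to 20 CPM and 13.4 to 15.4 CPM. The sum of the germ cell list was led by miR-449a-5p, which did not pass the test (log2 fold change -0.25), while the other 4 of its 5 markers, the arms of miR-34b and miR-34c, rose (miR-34b-3p by 0.99, miR-34b-5p by 1.11, miR-34c-3p by 1.36 and miR-34c-5p by 1.11 on the log2 scale, edgeR adjusted p of 0.00534, 0.0104, 0.000563 and 0.0297). Of the tested markers, 4 of 7 fell in the testis and sertoli list, 2 of 4 in the myoid list, 2 of 2 in the endothelial list and 2 of 5 in the epithelial list, and 1 of 2 rose in the erythroid list. None of the listed markers was at 0 in all samples. The part of these shifts in the results below was not tested.

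The HOX cluster miRNAs held a small part of the library. Together they made up 0.162 to 0.220% of the mature reads in each sample, and miR-10a-5p alone was 83.2 to 88.1% of that. The levels of the 11 rows spread from 1611 CPM for miR-10a-5p to 0.0299 CPM for miR-196b-3p, as means of the 6 samples. The plot of levels by sample shows this order.

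**Figure D1:**
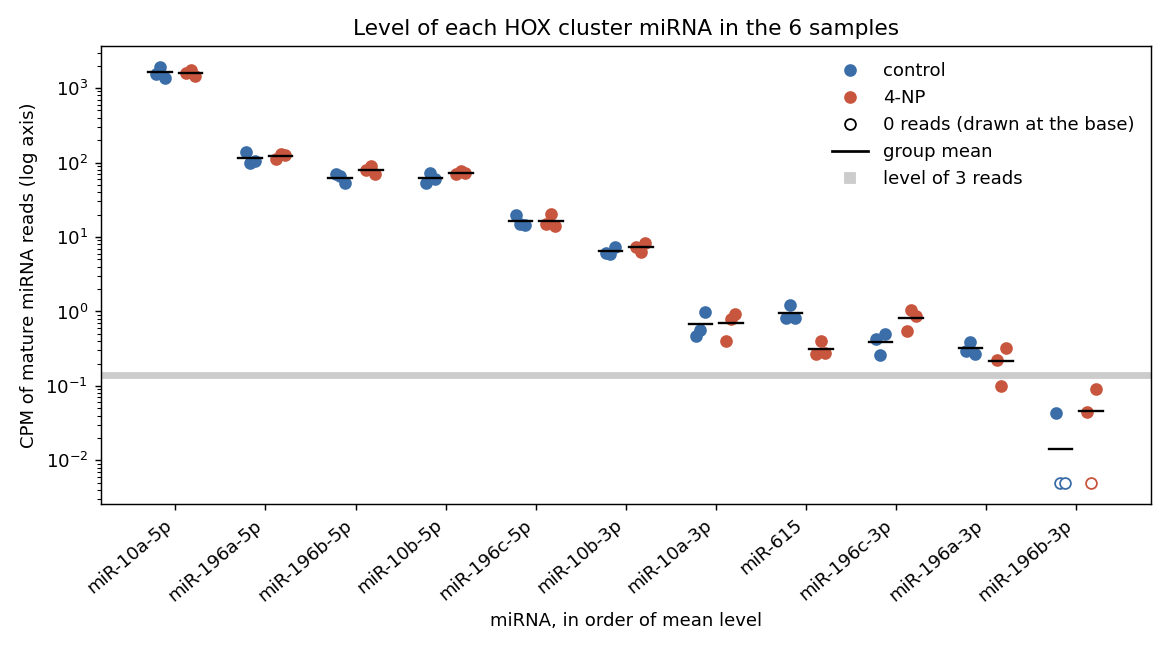
CPM of mature miRNA reads (log axis) of the 11 HOX cluster miRNA rows in order of their mean level, with control samples in blue and 4-NP samples in red, a line at each group mean, 0 reads as open points at the base and a grey band at the level of 3 reads (0.128 to 0.150 CPM). The control and 4-NP points overlap except for miR-615, where all 4-NP points are lower, and miR-196c-3p, where all are higher.

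Among the guide strands, rno-miR-10a-5p stood at 1547, 1935 and 1377 CPM in the 3 controls, and at 1587, 1767 and 1452 CPM in the 3 treated samples. The highest and the lowest of these values were both from controls, so the treated samples lay within the range of the controls. It ranked 36th of the 734 rows by mean CPM. Its near copy from the HoxD cluster, rno-miR-10b-5p, stood at 53.4, 72.2 and 60.3 CPM without 4-NP and at 70.2, 76.6 and 72.9 CPM with it. Only control replicate 2 reached the range of the treated samples.

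The 3 miR-196 genes differed in level although their mature sequences are nearly the same. From the HoxC cluster, rno-miR-196a-5p gave 138, 99.5 and 105 CPM without 4-NP and 112, 132 and 126 CPM with it, and the groups overlapped. From the HoxA cluster, rno-miR-196b-5p gave 69.5, 66.1 and 53.4 CPM without 4-NP and 78.4, 89.4 and 69.1 CPM with it, so that only control replicate 1 reached the treated range. From the HoxB cluster, rno-miR-196c-5p gave 19.7, 14.9 and 14.4 CPM without 4-NP and 14.8, 20.6 and 14.2 CPM with it. The order of miR-196a-5p over miR-196b-5p over miR-196c-5p held in all 6 samples. miR-196b-5p and miR-10b-5p, next to each other in the order of all rows, could not be separated, since each was the higher in 3 of the 6 samples.

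Products of 1 cluster differed widely in level. miR-10a-5p and miR-196c-5p are both products of the HoxB cluster, and miR-10a-5p had 78.3 to 129 times the reads of miR-196c-5p, depending on the sample. In the HoxC cluster, miR-615 had 0.00235 to 0.0124 times the reads of miR-196a-5p. The count table held 1 row for miR-615, whose listed sequence lies on the 5′ arm. Its values here describe that row and not the whole hairpin. The levels of rno-miR-615 were 0.811, 1.21 and 0.807 CPM in control cells, against 0.271, 0.400 and 0.274 CPM in treated cells, from 19, 28 and 18 reads against 6, 8 and 6. All treated samples lay below all controls.

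The strand opposite to the guide, here the 3p arm, was rare for all 5 hairpins with both arms counted, but its share differed between the near copies. The 3p arm gave 7.49 to 10.8% of the reads of miR-10b, against 0.0256 to 0.0716% for miR-10a. The order of these 2 genes was opposite on the 2 arms. The 3p arm of miR-10b stood at 6.06, 5.84 and 7.31 CPM without 4-NP and at 7.41, 6.24 and 8.22 CPM with it, while miR-10a-3p had 0.407 to 0.987 CPM over the 6 samples and was the lower of the pair in each of them. On average miR-10b-3p was 9.93 times miR-10a-3p, while miR-10a-5p had 19.9 to 28.9 times the reads of miR-10b-5p. The counting rule for reads that match both genes is not given in the sources used here, and its part in these ratios was not tested.

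Within the miR-196 family the 3p arm was most used by miR-196c, at 1.71 to 5.78% of both arms. For miR-196a it was 0.0756 to 0.390%, with 2 to 9 reads per sample. The reads of miR-196b-3p were 1, 0 and 0 without 4-NP and 1, 0 and 2 with it, so it was at or below the limit of detection in every sample. Neither miR-196a-3p nor miR-196b-3p had enough reads to be tested.

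**Figure D2:**
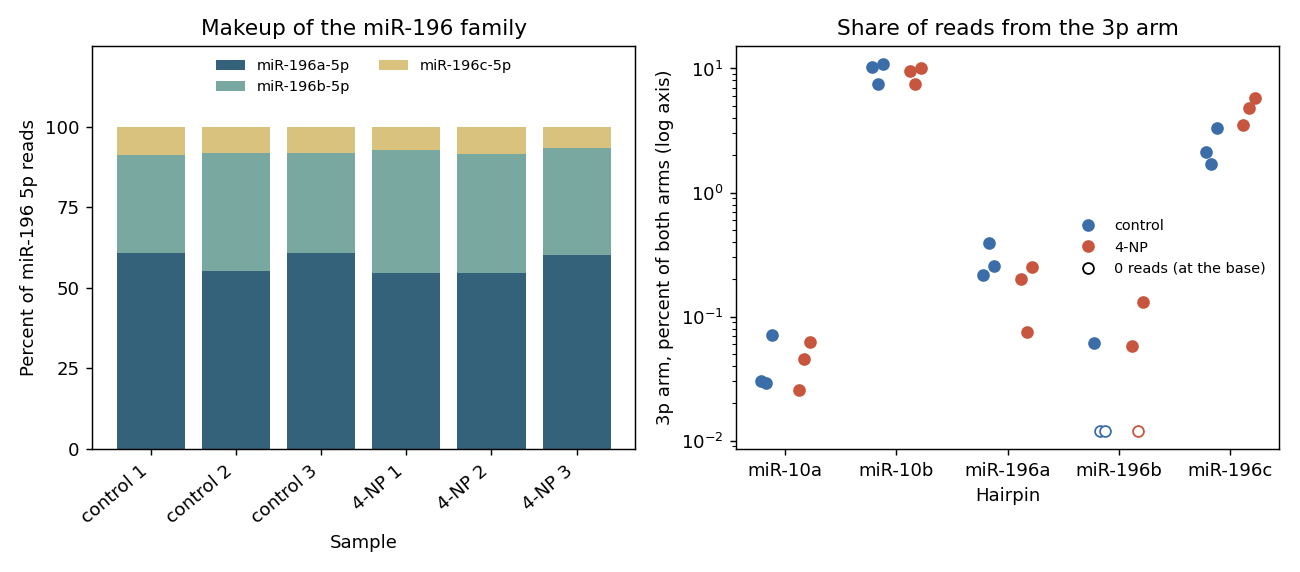
Left, percent of the miR-196 5p reads of each sample that came from miR-196a, miR-196b and miR-196c. Right, reads of the 3p arm as a percent of both arms (log axis) for the 5 hairpins with both arms counted, with controls in blue, 4-NP samples in red and 0 reads as open points at the base: miR-10b is at 7.49 to 10.8% and miR-10a at 0.0256 to 0.0716%.

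The comparison of 4-NP with control asked whether exposure changed these miRNAs. Of the 9 tested rows, 1 fell, none rose and 8 did not pass an adjusted p of 0.05 from edgeR's quasi-likelihood test, adjusted by Benjamini-Hochberg over all 549 tested miRNAs. The row that fell was miR-615. Of all tested miRNAs, 20.2% were called in either direction, 7.47% higher and 12.8% lower, against which 1 of 9 was not a larger share. The median log2 fold change was 0.08 over the 9 tested rows and -0.02 over all 549. At the study's own limits, a fold change over 2 or under 0.5 with an unadjusted p under 0.05, the same row passed, while 15.7% of all tested miRNAs did.

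For 6 of the 9 rows the 95% interval of the fold change lay inside 2-fold in both directions, and these were the 5 most abundant 5p arms and miR-10b-3p. The fitted log2 difference of miR-10a-5p was -0.03 (SE 0.12, edgeR adjusted p = 0.895), and its interval on the linear scale was 0.80 to 1.20. For miR-10b-5p it was 0.23 (SE 0.13, edgeR adjusted p = 0.256), with a linear interval of 0.94 to 1.46. The value for miR-196b-5p was 0.31 (SE 0.16, edgeR adjusted p = 0.210), with a linear interval of 0.95 to 1.60. A doubling of either of the last 2 lay outside its interval.

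miR-196a-5p and miR-196c-5p had smaller fitted changes. They were 0.08 (SE 0.20) for miR-196a-5p and -0.01 (SE 0.22) for miR-196c-5p on the log2 scale, with adjusted p values of 0.802 and 0.975 in edgeR. The linear intervals were 0.76 to 1.49 and 0.69 to 1.42. The value of miR-10b-3p was 0.16 (SE 0.20, edgeR adjusted p = 0.611). The sign of the values of miR-10a-5p and miR-196c-5p depended on the scaling.

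miR-615 was the exception. Its log2 difference of -1.58 (SE 0.34) corresponds to 0.334 times the control level, with an interval of 0.189 to 0.592 and an adjusted p of 0.0203 in edgeR. The fall rested on 65 control reads and 20 reads from treated cells, and among the 81 tested miRNAs with 0.5 to 2 times its mean reads, 12.3% were called. The adjusted p was above 0.05 without control replicate 1 (0.0628), without control replicate 2 (0.0835) and without 4-NP replicate 1, 2 or 3 (0.069, 0.0551 and 0.0677), as well as in DESeq2 (0.0992). Its level was lower in all 3 treated samples than in any control, and the fitted value stayed between -1.70 and -1.44 when each sample was left out in turn.

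Ratios within a cluster were added after the values were seen and rest on the same reads, so they describe the differences above without the library scaling and are no further evidence for them. The log2 ratio of miR-615 to miR-196a-5p was -6.90 ± 0.53 in the controls and -8.53 ± 0.23 after 4-NP (SD, n = 3 per group), a difference of -1.63. The groups did not overlap (two-sided exact permutation p = 0.1, below which a design of this size cannot go). In the HoxB cluster, the log2 ratio of miR-10a-5p to miR-196c-5p was 6.63 ± 0.36 in the controls and 6.61 ± 0.17 after 4-NP (SD, n = 3 per group), a difference within the spread of either group (two-sided exact permutation p = 1).

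The other row with no overlap between the groups was miR-196c-3p. Its reads were 10, 6 and 11 without 4-NP and 12, 21 and 19 with it, or means of 0.393 ± 0.120 and 0.820 ± 0.257 CPM (SD, n = 3 per group). The fitted log2 difference was 1.02 (SE 0.45, edgeR adjusted p = 0.160), so the difference did not pass the test. With a mean of 13.2 reads it was below the 20 reads set for arm ratios, and its ratio was added after the values were seen. The log2 ratio of its 5p to its 3p arm was 5.33 ± 0.48 in the controls and 4.33 ± 0.37 after 4-NP (SD, n = 3 per group), lower in all 3 treated samples (two-sided exact permutation p = 0.1, the smallest possible). Groups without overlap were found for 2 of the 9 tested rows and for 42.4% of all tested miRNAs. miR-10a-3p, with 9 to 22 reads per sample, had a fitted log2 difference of 0.05 (SE 0.48). Its linear interval of 0.46 to 2.32 did not exclude a change of 2-fold in either direction.

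**Figure D3:**
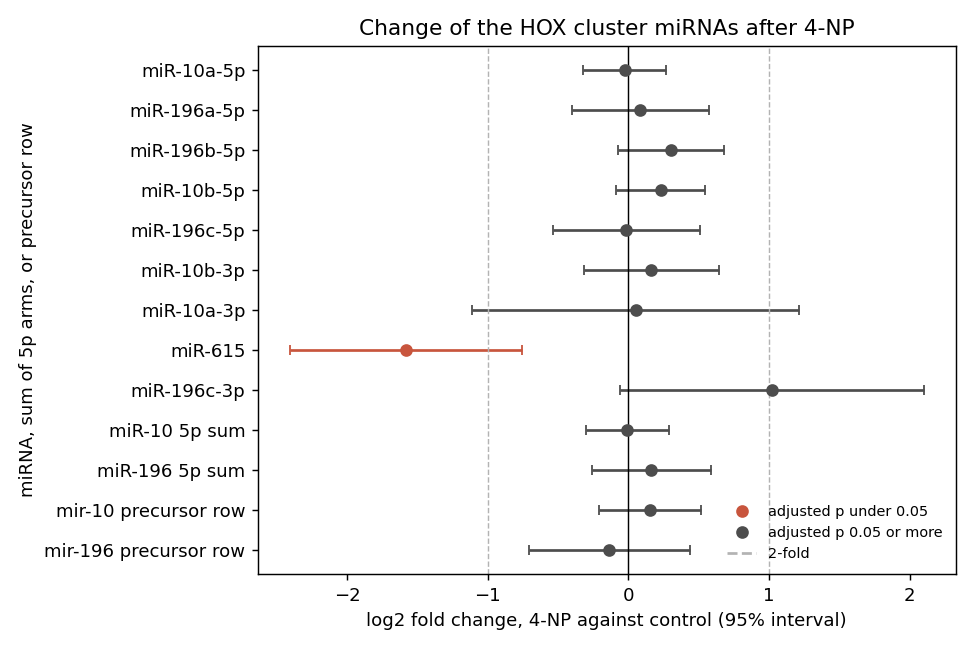
Log2 fold change of 4-NP against control with its 95% interval from edgeR for the 9 tested HOX cluster rows, for the summed 5p arms of miR-10 and of miR-196 and for the precursor rows, with 2-fold marked by dashed lines. miR-615, in red, is the single row with an adjusted p under 0.05, and its interval lies wholly below 0.

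Because the near copies differ by 1 base, their reads were also summed, so that the result did not depend on how reads were divided between them. The sum of miR-10a-5p and miR-10b-5p averaged 1682 ± 294 CPM in control cells and 1675 ± 160 CPM in treated cells (SD, n = 3 per group), a fitted log2 difference of -0.01 (SE 0.12, edgeR adjusted p = 0.975). The sum of the 3 miR-196 5p arms averaged 194 ± 29.4 CPM in control cells and 219 ± 20.1 CPM in treated cells (SD, n = 3 per group), a fitted log2 difference of 0.16 (SE 0.18, edgeR adjusted p = 0.556). Neither sum passed the test, and both intervals lay inside 2-fold.

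The makeup of each family was also much the same in both groups. miR-10b-5p was 3.34, 3.60 and 4.20% of the miR-10 5p reads without 4-NP and 4.23, 4.16 and 4.78% with it. The groups overlapped through control replicate 3 and 4-NP replicate 2, and the log2 ratio of miR-10a-5p to miR-10b-5p differed by -0.26 (two-sided exact permutation p = 0.2). miR-196a-5p was 54.5 to 60.8% of the miR-196 5p reads over the 6 samples, miR-196b-5p was 30.6 to 38.2% and miR-196c-5p was 6.75 to 8.68%. The ratio of the 2 largest, miR-196a-5p to miR-196b-5p, differed by -0.20 on the log2 scale (two-sided exact permutation p = 0.2). For miR-10b, the hairpin with a mean of at least 20 reads on each arm, the log2 ratio of the 5p to the 3p arm was 3.27 ± 0.31 in the controls and 3.33 ± 0.25 after 4-NP (SD, n = 3 per group; two-sided exact permutation p = 0.7).

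Reads that the authors assigned to miRNA precursor families gave a second readout of the miR-196 genes, but for miR-10 only a readout mixed with its relatives. The mir-196 precursor family counted 329, 287 and 320 reads without 4-NP and 321, 290 and 201 with it. The fitted log2 difference was -0.13 (SE 0.24, edgeR adjusted p = 0.687, over 736 tested rows other than mature miRNAs, of which 22.4% were called). It was 0.05 without 4-NP replicate 3. With TMM factors computed from the rows other than mature miRNAs it was -0.51 (edgeR adjusted p = 0.239). Under the scaling used, the median log2 fold change of the tested rows other than mature miRNAs was 0.46. The mir-10 precursor family, whose name in the table does not separate the HOX cluster genes from their relatives, counted 15385 to 20700 reads without 4-NP and 16999 to 19361 with it. Here the fitted log2 difference was 0.15 (SE 0.15, edgeR adjusted p = 0.481), and it turned to -0.23 when TMM factors were computed from the rows other than mature miRNAs. Neither row passed the test.

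The relatives of miR-10 outside the HOX clusters were listed beside them. miR-99a, miR-99b and miR-100 are close in sequence to miR-10 and share genomic clusters with let-7 and miR-125 genes. miR-100-5p matched miR-10a-5p at 19 of 22 aligned bases. Of the 11 rows of miR-99, miR-100 and miR-125, all of which were tested, 3 fell, none rose and 8 did not pass the test, with a median log2 fold change of -0.15. Of all 549 tested miRNAs, 20.2% were called in either direction and 12.8% lower, with a median of -0.02. Groups without overlap were found for 4 of these 11 rows and for 42.4% of all tested miRNAs. The 3 related rows that fell were 3p arms. The mean of miR-125b-1-3p was 122 ± 23.4 CPM in control cells against 54.1 ± 9.40 CPM in treated cells (SD, n = 3 per group), a log2 difference of -1.17 (SE 0.20, edgeR adjusted p = 0.00777). miR-99b-3p fell by 0.75 on the log2 scale (edgeR adjusted p = 0.00777) and miR-125a-3p fell by 0.84 (adjusted p = 0.0473), a call that was lost without either of control replicates 1 and 2 and without either of 4-NP replicates 1 and 2 (adjusted p of 0.102 to 0.141), with DESeq2 (0.059), without a filter on low counts (0.0587), with limma on log2(CPM + 0.1) (0.0508) and with a replicate block (0.0991). The guide strand miR-125b-5p had 1260, 1767 and 1150 CPM without 4-NP and 688, 1261 and 487 CPM with it, a log2 difference of -0.79 (SE 0.33, edgeR adjusted p = 0.143) between those of miR-99b-3p and miR-125a-3p, but its groups overlapped and it did not pass the test. The guide strand miR-100-5p, with means of 1705 ± 258 CPM in control cells and 1737 ± 168 CPM in treated cells (SD, n = 3 per group), was near the level of miR-10a-5p and differed by 0.01 on the log2 scale (SE 0.11, edgeR adjusted p = 0.954).

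**Figure D4:**
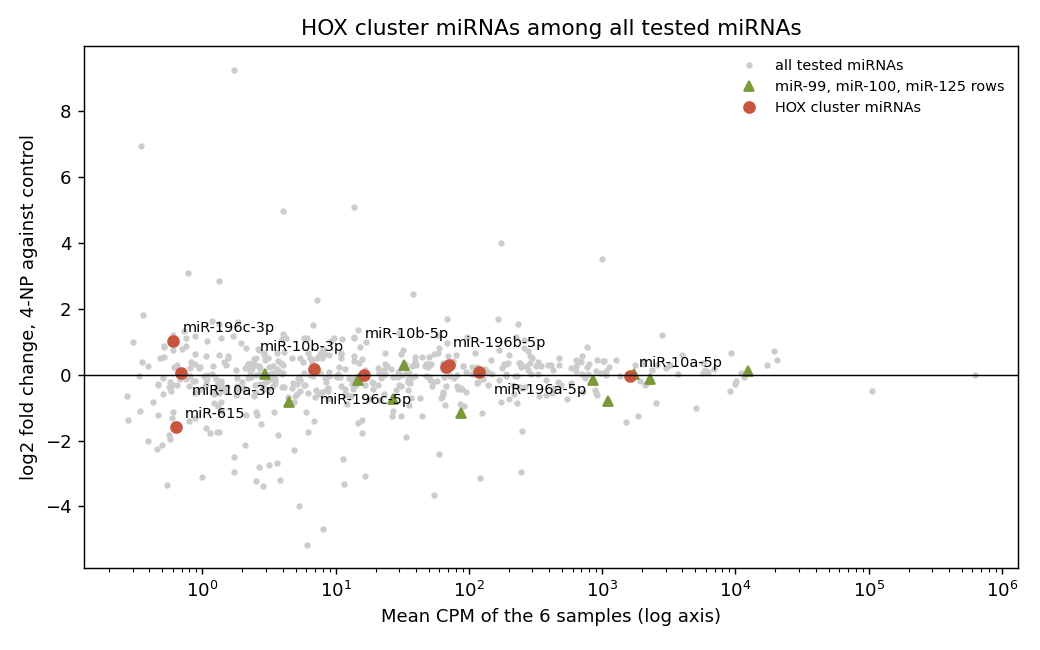
Log2 fold change of 4-NP against control plotted against the mean CPM of the 6 samples (log axis) for the 549 tested miRNAs in grey, the rows of miR-99, miR-100 and miR-125 as green triangles and the 9 tested HOX cluster rows in red with their names. The abundant HOX cluster 5p arms lie close to 0, and miR-615, at a mean of 0.629 CPM, lies at -1.58.

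The miRNAs whose levels ran most closely with these members over the 6 samples were found by Pearson's r of log2(CPM + 1), as a description without a test, since the samples share their libraries and fall into 2 groups. Of 487 other miRNAs with a mean of at least 20 reads, those nearest to miR-10a-5p were miR-100-5p (r = 0.95), miR-488-3p (r = 0.928) and miR-222-3p (r = 0.923). Those nearest to miR-196a-5p were let-7f-5p (r = 0.912), let-7c-5p (r = 0.91) and miR-3557-3p (r = 0.871), and the first 2 of these hold the letters of its seed. None of these 6 passed the test after 4-NP. Nearest to miR-615, of 488 others, were miR-742-3p (r = 0.991), miR-99b-3p (r = 0.986) and miR-540-3p (r = 0.985), each of which fell after 4-NP at an adjusted p under 0.05 in edgeR, with log2 fold changes of -3.20, -0.75 and -1.14. The choice by r favours such outcomes, since miR-615 separates the groups while miR-10a-5p and miR-196a-5p do not. These outcomes are therefore no further evidence. miR-615 itself had a mean of 14.2 reads, below the minimum asked of the others.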

How the data were processed

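Size-selected small RNA was sequenced by the authors from 3 control and 3 4-NP samples. The authors deposited 1 table of read counts per small RNA, without normalization. The processing notes name HISAT2 and DESeq2 without a role or version, and the genome build and miRNA database are not given in the sources used here. A further 6 columns, named for unique molecular identifiers, were not used, and whether the counts were collapsed to molecules is not given in the sources used here. Adapter ligation and amplification can favour some sequences, so a ratio of reads between 2 miRNAs is not a ratio of molecules. Left out were 4 rows that only sum reads by genomic class (exon, intron, intergenic or repeat), 3.52 to 5.91% of counted reads.

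CPM used the sum of mature counts per sample. Counts were tested in R 4.3.3 with edgeR 4.0.16 (quasi-likelihood F test, TMM factors, filterByExpr, no replicate block), with Benjamini-Hochberg adjustment over 549 miRNAs, after a test of the procedure on simulated data. In that simulation only miRNAs expected at 20 or more reads were changed. It therefore did not cover changes in miR-615, miR-10a-3p or miR-196c-3p. Standard errors were the absolute log2 difference over the square root of F. Precursor rows were tested with the effective library sizes of the mature miRNAs. Log ratios used counts + 0.5 and a two-sided exact permutation test over the 20 assignments of the samples, planned for hairpins with a mean of at least 20 reads on each arm (miR-196c, below this, was added). The alternatives were DESeq2 1.42.0, limma 3.58.1, edgeR's classic exact test, other scalings and filters, known miRNAs only, a replicate block and the omission of each sample. Every row of the 6 genes is named, with the related miRNAs called and the 3 miRNAs nearest in pattern to miR-10a-5p, miR-196a-5p and miR-615. The members and lists were chosen with earlier results of these data known. The ratios of miR-615 to miR-196a-5p, miR-10a-5p to miR-196c-5p, miR-196a-5p to miR-196b-5p and the arms of miR-196c were added after the values were seen. Replicates differed by more than counting error (chi-square per degree of freedom of 154 to 942). Markers of 8 cell types were summed.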

Additional observations from a re-analysis of the deposited data

How the results depend on the processing

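The number of HOX cluster rows called, 1 (lower), became 0 with DESeq2, with at least 10 counts in every sample (which removed miR-615, miR-10a-3p and miR-196c-3p from the test) and with a replicate block, and was 0 to 1 when each sample was left out. No row was called higher under any alternative run. With the replicate block, miR-615 had a log2 fold change of -1.58 and an adjusted p of 0.0699, and the number of all miRNAs called went from 111 to 82. The deviations of same-numbered samples had r of -0.301, -0.267 and -0.0209. With 3 samples per group, such values cannot show whether same-numbered samples shared an animal or a culture. With limma on log2(CPM + 1) the difference of miR-615 was -0.56, as the added 1 exceeds its CPM in 5 samples. No row or sum whose fitted value changed sign was called in any fit. Nearest to 0 in the main fit were miR-10a-5p, miR-196c-5p and the miR-10 5p sum. miR-10a-5p was 0.0063 with RLE factors, 0.0062 with DESeq2, 0.023 without miR-21-5p in the library size and 0.0075 without a filter. It ran from -0.13 to 0.044 with a sample left out. miR-196c-5p was 0.029 with RLE factors, 0.029 with DESeq2, 0.054 without miR-21-5p, 0.033 without a filter and 0.016 scaled to the sum of mature counts. It ran from -0.13 to 0.18 with a sample left out. The miR-10 5p sum was 0.019 with RLE factors, 0.019 with DESeq2 and 0.033 without miR-21-5p. It ran from -0.11 to 0.055 with a sample left out. Other rows changed sign with a sample left out. miR-10a-3p ran from -0.20 to 0.45, miR-196a-5p from -0.061 to 0.28 and the mir-196 precursor family from -0.25 to 0.045. With TMM factors of the rows other than mature miRNAs, the mir-10 precursor family changed sign, from 0.15 to -0.23. The mir-196 precursor family kept its sign there, at -0.51 (edgeR adjusted p = 0.239). Rows under about 20 reads per sample (miR-615, miR-10a-3p, miR-196c-3p, miR-196a-3p and miR-196b-3p) are limited by depth.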
